A study of Ambystoma mexicanum with 6 samples.

Results

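The 200 genes described here are those with the most reads among the genes whose identifiers begin with AMEX60DDU in retinas of the axolotl, an aquatic salamander. They were chosen by mean CPM (the estimated reads of a gene scaled to the total of its library) over all 6 libraries, from 42276 AMEX60DDU genes and 99088 genes in all. The other 56812 genes carry identifiers in which AMEX60DD is followed directly by a digit. The sources used here do not give what the letter U stands for. The files pair identifiers with no gene name, and 0 of them matched the RefSeq gene table, so genes are described by identifier or by their rank in mean CPM among AMEX60DDU genes, rank 1 having the most reads.

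The regenerating group consisted of 3 pools of retinas taken 27 days after retinectomy. The uninjured group consisted of 3 pools of the retinas removed at the operation, which came from the left eyes. All 12 animals were adults of the leucistic (pale-skinned) genotype, each pool held the retinas of 4 animals, and a regenerating and an uninjured pool with 1 number share their animals. Libraries were made from total RNA of the pooled retinas and sequenced, at 29.4 M, 32.0 M and 34.2 M estimated reads in the regenerating and 35.7 M, 37.4 M and 31.0 M in the uninjured libraries. The labelled tissue could not be checked against marker genes, since no gene is named.

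The retina is a layered nervous tissue in which photoreceptors pass signals through interneurons to ganglion cells, with Müller glia spanning the layers. In newts, another group of salamanders, the pigmented epithelium behind the retina can give rise to a new one. The reads were assigned with Salmon, which divides a read between all transcripts it matches, so that near-identical gene copies and overlapping genes share reads and an estimated count need not be a whole number. The values of such genes are uncertain.

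To part identifier type from abundance, each of the 200 genes was set beside 1 AMEX60DD-plus-digit gene of nearly the same mean CPM. The largest difference in mean CPM within a matched pair was 0.0074 on the log2 scale. Since the mean CPM chose both sets, their levels are a description. Mean CPM was 30.93 at rank 200, the last gene taken, and 30.61 at rank 201, the first left out. Of the 200 genes, 110 lay above 30.93 CPM in the means of both groups, 31 in the regenerating mean alone and 59 in the uninjured mean alone. The matched genes gave 114, 36 and 50 by the same cutoff. A gene high in 1 group alone could thus enter through that group, in both sets alike.

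In reads, the 200 genes took a small part of the RNA, with overlapping shares in the groups. They held 2.48%, 2.25% and 2.29% of the estimated reads of the regenerating libraries and 2.55%, 2.39% and 2.75% of the uninjured ones. The means were 2.34% ± 0.124 and 2.56% ± 0.183 (SD, n = 3 each), with an exact two-sided permutation p of 0.20, where 0.10 is the smallest that 3 against 3 allows. Here and below, this permutation takes all libraries as independent and ignores that pools of the same number share animals. The 200 genes held 51.5% to 54.0% of all AMEX60DDU reads of a library. All AMEX60DDU genes together took 4.39% ± 0.182 of regenerating and 4.90% ± 0.313 of uninjured reads (SD, n = 3 each, exact permutation p = 0.20). The matched genes took 2.29% ± 0.0355 of regenerating and 2.62% ± 0.0370 of uninjured reads, with no overlap (SD, n = 3 each, exact permutation p = 0.10). In TPM, an abundance corrected for length, the shares lay further apart. For the 200 genes this distance lay in 8 short genes, described below, and for all AMEX60DDU genes it lay in them in part. The 200 genes held 3.36% ± 0.144 of regenerating and 6.30% ± 3.25 of uninjured TPM, with overlap (SD, n = 3 each, exact permutation p = 0.30), and all AMEX60DDU genes held 11.5% ± 0.192 and 16.9% ± 3.74, with none (exact permutation p = 0.10).

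Most of the 200 genes differed between the groups. Of the 200, 59 were higher and 71 lower in the regenerating pools and 70 did not pass the test (edgeR quasi-likelihood test, adjusted p under 0.05 over all 37844 tested genes). Over all tested genes 41.6% were called, 20.4% higher and 21.1% lower. Of the AMEX60DDU genes 65.0% were called, against 69.0% of the matched AMEX60DD-plus-digit genes, which gave 67 higher and 71 lower. On TPM calls were 52 higher and 75 lower for the AMEX60DDU and 50 and 84 for the matched genes, of whose calls 37.3% were then higher, against 48.6% before. The median log2 change was -0.01 over the AMEX60DDU genes, -0.05 over the matched genes and -0.01 over all tested genes. In whole retinas, a lower value can mean fewer cells of a type or less RNA per cell, which cannot be told apart.

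All 200 genes and all 200 matched genes passed the filter on low counts. Among the 110 genes above the cutoff in both groups, 34 were higher and 22 lower, or 50.9% called, beside 38 and 26 of the 114 matched genes of this kind, or 56.1% called. In 70 genes all 3 regenerating pools lay above all 3 uninjured pools (27.8% of all tested genes), and in 68 all lay below (28.6%). The matched genes gave 79 and 82, and over all tested genes the groups did not overlap in 56.4%.

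**Figure D1:**
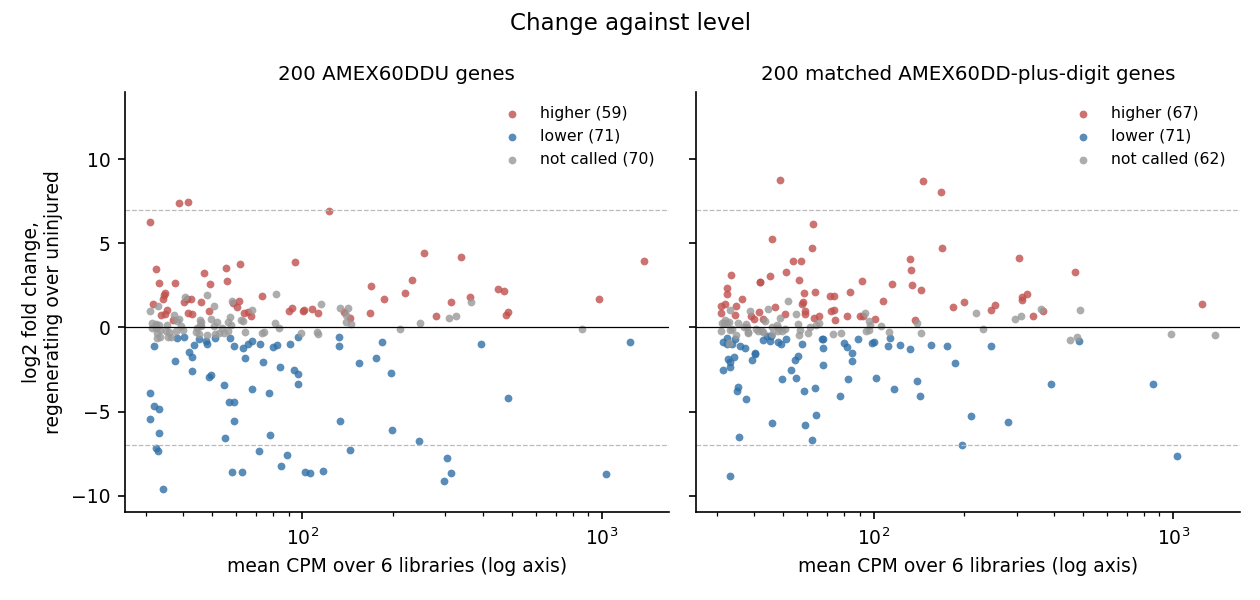
Fitted log2 fold change (regenerating over uninjured, vertical axis) against mean CPM over 6 libraries (log axis), with 1 point per gene, for the 200 AMEX60DDU genes (left) and the 200 matched genes (right). Dashed lines mark 128-fold. The numbers of higher and lower calls are near those of the matched genes, and 16 AMEX60DDU genes against 2 matched genes lie beyond the lower dashed line. All 16 lay above the cutoff of 30.93 CPM in the uninjured mean alone.

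The 10 genes with the most reads took 0.831% ± 0.0984 of regenerating and 0.740% ± 0.0316 of uninjured reads (SD, n = 3 each, exact permutation p = 0.30). Of the 10, 6 rose, 3 fell and 1 did not pass. Calls were frequent at this abundance, at 73.1% of AMEX60DD-plus-digit genes from 200 to 500 CPM and 78.5% from 500 CPM. Over all tested genes 41.6% were called. Levels are given below as CPM scaled by TMM, a correction for library composition, and compare pools within a gene. Between genes they also depend on length, for which TPM is given.

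AMEX60DDU001040875, ranked 1, had the most reads and was far higher in the regenerating retina. It measured 3280, 2289 and 2591 CPM in the regenerating pools and 290, 121 and 127 CPM in the uninjured pools. All regenerating pools lay far above all uninjured pools, among which pool 1 was the highest. Regenerating pools averaged 2720 ± 508 CPM and uninjured pools 179 ± 95.8 CPM (SD, n = 3 each). The rise was 15.2-fold, at a log2 change of 3.92 (SE 0.43, edgeR adjusted p = 0.000749). Its mean level was 1095 TPM at a length of 2157 bases.

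AMEX60DDU001001251, ranked 4, also rose. It had 1681, 1480 and 1407 CPM in the regenerating pools, against 736, 365 and 342 CPM in the uninjured pools. The groups did not overlap, and uninjured pool 1 again lay nearest to the regenerating pools. The log2 change was 1.66 (SE 0.34, edgeR adjusted p = 0.00858). With 1702 TPM on average, this gene of 1289 bases exceeded the gene ranked 1 in level per length.

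AMEX60DDU001026374, ranked 3, was nearly lost. It measured 5.29, 4.40 and 4.65 CPM in the regenerating pools, against 1276, 2455 and 2198 CPM in the uninjured pools. The regenerating pools differed little among themselves, whereas uninjured pool 1 held 54.9% of the mean of pools 2 and 3. The fall was 413-fold, with a log2 change of -8.69 (SE 0.39, edgeR adjusted p = 4.12e-05). The gene is 5751 bases long and averaged 1.18 TPM in regenerating and 591 TPM in uninjured pools.

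AMEX60DDU001010870, ranked 2, was lower by a small factor. It had 956, 802 and 862 CPM in the regenerating pools, against 1163, 1830 and 1748 CPM in the uninjured pools. The groups did not overlap, but uninjured pool 1 lay close to regenerating pool 1. The log2 change was -0.86 (SE 0.23, edgeR adjusted p = 0.0259). The call was lost with pools of the same animals blocked and without uninjured pool 2 or 3 or regenerating pool 2 or 3, at adjusted p of up to 0.0992 (range over all alternatives 0.00107 to 0.0992).

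AMEX60DDU001006823, ranked 5, held nearly the same level in both groups. It had 867, 705 and 887 CPM in the regenerating and 995, 854 and 806 CPM in the uninjured pools. The pools of the groups overlapped, and the log2 change of -0.11 (SE 0.19) was smaller than its error (edgeR adjusted p = 0.671, range 0.308 to 0.998). All 6 estimated counts of this gene were whole numbers. In the genes ranked 1, 2, 3, 4 and 12 all 6 were not whole, so the uncertainty of shared reads applies to their values.

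AMEX60DDU001025685, ranked 12, did not pass either, but its pools were uneven. It had 474, 524 and 654 CPM in the regenerating pools, against 454, 65.8 and 68.1 CPM in the uninjured pools. Uninjured pool 1 lay at the level of the regenerating retina, and pools 2 and 3 lay far below it. The fitted log2 change was 1.49 (SE 0.79, edgeR adjusted p = 0.182, range over all alternatives 6.56e-05 to 0.423). Without uninjured pool 1 the change was 3.04 at an edgeR adjusted p of 6.56e-05, the only setting in which the gene passed. Since the values of that pool led to leaving it out, this is a description and no support.

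**Figure D2:**
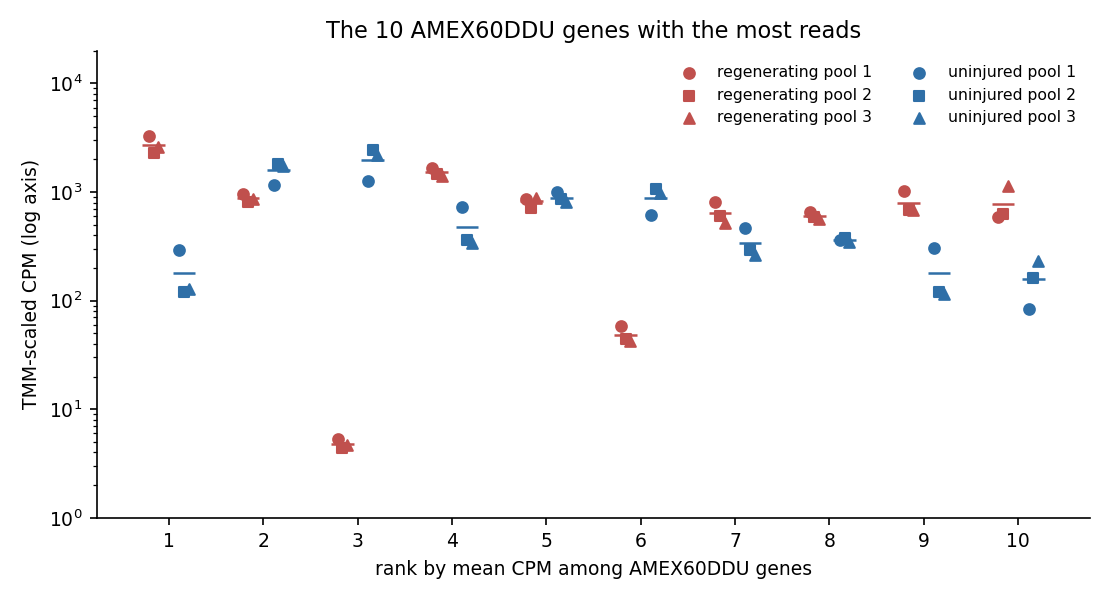
TMM-scaled CPM (log axis) of the 10 AMEX60DDU genes with the highest mean CPM, with 1 point per pool, regenerating pools in red at the left of each gene, uninjured pools in blue at its right, and short lines for the group means. The gene ranked 3 falls to about 5 CPM in all regenerating pools, and the gene ranked 5 overlaps between the groups.

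Of the other genes among the first 10, 1 fell and 4 rose. The gene ranked 6 averaged 48.4 ± 8.74 CPM in regenerating and 888 ± 238 CPM in uninjured pools (SD, n = 3 each). It fell 18.4-fold (edgeR adjusted p = 0.000133). The genes ranked 8, 9 and 10 rose by 1.66-fold, 4.41-fold and 4.94-fold (edgeR adjusted p = 0.00979, 0.0101 and 0.00737). The gene ranked 8 missed the threshold without uninjured pool 3 (adjusted p = 0.0558, range over all alternatives 4.98e-06 to 0.0558). The gene ranked 7 was 1.88-fold higher at an edgeR adjusted p of 0.0456, a call lost with library totals as the scaling, with a minimum mean of 1 CPM, on TPM and without any pool other than uninjured pool 1 (range 0.00467 to 0.148).

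Falls of at least 32-fold were more frequent among the AMEX60DDU genes than among the matched genes, and steep rises were not. At least 8-fold changes were called lower in 34 AMEX60DDU and 25 matched genes (6.81% of all tested genes) and higher in 12 and 16 (5.09%). At 32-fold the numbers were 24 and 10 lower (3.18%), and 4 and 5 higher (1.63%). At 128-fold they were 16 and 2 lower (1.13%), and 2 and 3 higher (0.552%). The median fall of a gene called lower was 7.21-fold among AMEX60DDU and 3.36-fold among matched genes, while the median rise was 3.17-fold and 3.16-fold. Without 8 short genes near 0 in uninjured pool 2, described below, 192 AMEX60DDU genes remained. Of these, 26 were called at least 8-fold lower, 16 at least 32-fold and 8 at least 128-fold, with a median fall of 5.86-fold. The excess over the matched genes at 8-fold thus lay almost wholly in those 8 genes. The numbers above describe chosen genes and were not tested against each other. Of the 110 AMEX60DDU genes above 30.93 CPM in both group means, 1 was called at least 8-fold lower and 2 at least 8-fold higher. At 32-fold the number was 0 in either direction. All changes of 32-fold or more thus lay in genes above that cutoff in 1 group alone, a trait that the choice by mean CPM allows.

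The 16 genes that fell by 128-fold or more in the fit were of 2 kinds, set apart after their values were seen. In 8 of them all 3 uninjured pools held the RNA. Those include the genes ranked 3, 17 and 19, and they averaged between 0.392 and 4.78 CPM in the regenerating group and between 62.3 and 1977 CPM in the uninjured group. Uninjured pool 1 held less than pools 2 and 3 in all 8, at 25.1% to 62.6% of their mean. The gene ranked 17, 501 bases long, had 1.67, 1.32 and 1.52 CPM in regenerating and 374, 732 and 694 CPM in uninjured pools, a 399-fold fall (edgeR adjusted p = 4.15e-05). Per length it had the highest uninjured level of the 8, at 7.86 TPM in regenerating and 4126 TPM in uninjured pools.

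The other 8 genes were nearly absent from 1 uninjured pool as well. Their levels were 0.0362 to 1.19 CPM in the regenerating pools, 48.2 to 438 CPM in uninjured pool 1, 0.135 to 1.32 CPM in uninjured pool 2 and 142 to 1210 CPM in uninjured pool 3. Uninjured pool 2 thus lay near the regenerating pools, and uninjured pools 1 and 3 lay at least 30-fold above it, a bound used to pick the 8. The ratio of pool 3 to pool 1 was nearly the same in all 8, between 2.63 and 2.95. These genes are short, at 204 to 434 bases, and none of their 48 estimated counts was a whole number. The genes ranked 54, 55 and 94 carry consecutive identifiers, as do those ranked 104 and 175.

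The gene ranked 20 had the most reads of the 8. It had 33.3, 27.5 and 25.8 estimated reads in the regenerating libraries and 17461, 48.6 and 39802 in the uninjured libraries. On the scaled level that is 1.19, 0.927 and 0.806 CPM against 438, 1.32 and 1210 CPM. The fitted log2 change was -9.14 with an SE of 2.23, against 0.39 for the gene ranked 3, at an edgeR adjusted p of 0.0183 (range over alternatives 2.47e-07 to 0.259). The gene ranked 175 had the largest fitted fall, at a log2 change of -9.61 (SE 2.24, edgeR adjusted p = 0.0155, range 1.63e-07 to 0.437). It had 1.34, 4.21 and 2.33 estimated reads in the regenerating and 1919, 13.4 and 4670 in the uninjured libraries. For the gene ranked 54 the change was -8.67 (SE 2.17, edgeR adjusted p = 0.0203, range 1.12e-06 to 0.358).

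All 8 were called lower by edgeR, at adjusted p of 0.0155 to 0.0250, and by DESeq2, but the calls did not hold in most other settings. All 8 passed with RLE scaling, library totals or a minimum mean of 1 CPM, and without uninjured pool 1. Without uninjured pool 2, whose low values chose them, all 8 passed at edgeR adjusted p of 0.000537 to 0.00138, which is a description and no support. None (0) of the 8 passed with limma-voom, without the filter on low counts, or without any 1 of the regenerating pools, 4 passed without uninjured pool 3, and 1 passed on TPM. With pools of the same animals blocked, 1 of the 8 passed (adjusted p 0.0404 to 0.174). Over all alternatives their adjusted p was 1.63e-07 to 0.476.

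Without these 8 genes, 59 of 192 AMEX60DDU genes were higher and 63 lower, and 8 were at least 128-fold lower. All tested genes were searched for this pattern, with at least 10 CPM in uninjured pools 1 and 3, each at least 30-fold above pool 2. The search returned these 8 of the 11929 tested AMEX60DDU genes. The 8 were picked by the same bounds, so their return was fixed, and the result is that no further AMEX60DDU gene was found. The search returned 1 of the 25915 tested AMEX60DD-plus-digit genes. That gene had 0.362, 0.166 and 0.372 CPM in the regenerating pools and 37.2, 0.297 and 102 CPM in the uninjured pools. Its ratio of pool 3 to pool 1, 2.74, lies within the range of the 8.

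The 8 genes took 0.0142%, 0.0163% and 0.0139% of the reads of the 200 genes in the regenerating libraries, against 5.57%, 0.0159% and 13.5% in the uninjured libraries. Per length they weighed more. They held 0.00505%, 0.00657% and 0.00539% of all TPM in regenerating pools and 2.46%, 0.00741% and 6.72% in uninjured pools. The other 192 genes held 3.49%, 3.37% and 3.21% of all TPM in regenerating and 3.40%, 3.29% and 3.03% in uninjured pools. The spread among uninjured pools in the TPM of the 200 genes, 5.85%, 3.30% and 9.75%, therefore lay almost wholly in these 8 genes. The other 192 genes overlapped between the groups, so the lower TPM share of the 200 genes in regenerating pools lay in these 8 as well.

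**Figure D3:**
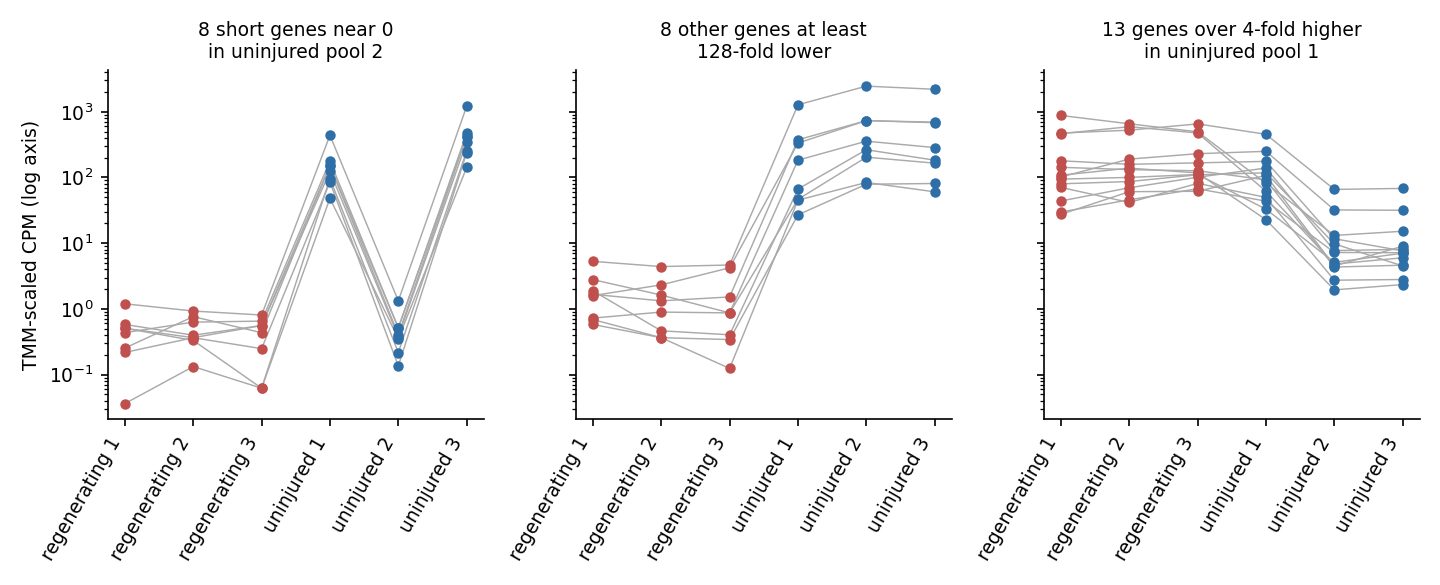
TMM-scaled CPM (log axis) by pool, regenerating pools 1 to 3 in red and uninjured pools 1 to 3 in blue, with a grey line joining the values of a gene. Left, the 8 short genes near 0 in uninjured pool 2, where uninjured pools 1 and 3 are high; centre, the 8 other genes at least 128-fold lower; right, the 13 genes more than 4-fold higher in uninjured pool 1 than in pools 2 and 3.

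In 13 of the 200 genes (6.50%), singled out after their values were seen, uninjured pool 1 lay more than 4-fold above both other uninjured pools. This was so in 2 of the matched genes and in 4.74% of all tested genes. Of the 13, 4 were called higher and 9 were not called. The gene ranked 49 had 179, 158 and 167 CPM in the regenerating pools and 176, 11.7 and 7.63 CPM in the uninjured pools, so that uninjured pool 1 lay among the regenerating pools. Without uninjured pool 1, the pool whose high values chose them, all 13 were called higher at edgeR adjusted p of 8.77e-06 to 0.00366, which is a description and no support. In that setting 23.8% of tested AMEX60DDU and 59.6% of tested AMEX60DD-plus-digit genes were called in either direction. Whether the retinas of this pool differed in a technical or a biological way was not tested.

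Uninjured pool 1 also leaned towards the regenerating pools in the called genes at large. It lay below pools 2 and 3 in 53 of the 71 genes that fell and above them in 46 of the 59 that rose. In the matched genes it did so in 62 of 71 and 51 of 67, and over all tested genes in 73.1% of those called lower and 64.5% of those called higher. Without this pool 78 AMEX60DDU and 80 matched genes were higher and 81 and 82 lower.

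The genes with the steepest rises were almost silent in the uninjured retina, which follows from their mean levels and the size of the rise. The genes ranked 149, 157, 47 and 197 rose by at least 32-fold, and none reached 3 CPM in an uninjured pool. All 4 lay above the cutoff of 30.93 CPM in the regenerating mean alone. All 6 estimated counts were not whole in the genes ranked 149, 47 and 197, and 5 were not whole in that ranked 157. The gene ranked 149, 13565 bases long, had 85.5, 72.6 and 105 CPM in regenerating and 0.527, 0.541 and 0.395 CPM in uninjured pools, a 178-fold rise (log2 change 7.48, SE 0.25, edgeR adjusted p = 2.81e-05). The gene ranked 157 had 46.8, 81.4 and 116 CPM in regenerating and 0.578, 0.487 and 0.335 CPM in uninjured pools, a 172-fold rise (edgeR adjusted p = 9.56e-05). Both were thus separated from the uninjured pools by far more than the spread within either group.

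The gene ranked 47, 574 bases long, was the least even of these 4. It had 85.4, 508 and 181 CPM in the regenerating pools and 2.89, 1.87 and 1.61 CPM in the uninjured pools (121-fold, edgeR adjusted p = 0.00113). The gene ranked 197 had 58.1, 52.6 and 84.7 CPM in regenerating and 0.954, 0.784 and 0.791 CPM in uninjured pools (76.8-fold, edgeR adjusted p = 3.87e-05). The next largest rise, of the gene ranked 22, was 21.1-fold, with 464, 593 and 476 CPM in regenerating and 61.8, 4.81 and 5.99 CPM in uninjured pools (edgeR adjusted p = 0.0202). It belongs to the 13 genes high in uninjured pool 1, and its call was lost without any 1 of the regenerating pools and without the filter on low counts (range 3.79e-06 to 0.124).

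As a whole the 59 genes that rose took 1.44% ± 0.0907 of regenerating and 0.434% ± 0.125 of uninjured reads (SD, n = 3 each). The 71 that fell took 0.260% ± 0.00385 of regenerating and 1.56% ± 0.323 of uninjured reads. The 70 not called took 0.639% ± 0.0326 and 0.573% ± 0.133. The first 2 directions follow from how the genes were sorted, so these shares are a description. Of the 70, 11 had a fitted change of at least 2-fold, or 15.7%, against 5 of the 62 matched genes not called and 16.4% of all tested genes not called.

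The AMEX60DDU genes were shorter than matched genes of the same abundance and more often had a count that was not whole. Their median length was 2905 bases, against 4116 bases in the matched genes, and 37 were shorter than 1000 bases, against 7. At equal read number they therefore had higher levels per length, with a median of 61.0 TPM (range 4.41 to 2938 TPM) against 32.8 TPM (2.19 to 2455 TPM). In 119 of the 200 genes at least 1 estimated count was not a whole number, against 82 of the matched genes, and 55.0% of their values were not whole, against 33.4%. Among all tested genes the shares of values were 79.1% for AMEX60DDU and 38.1% for AMEX60DD-plus-digit identifiers.

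**Figure D4:**
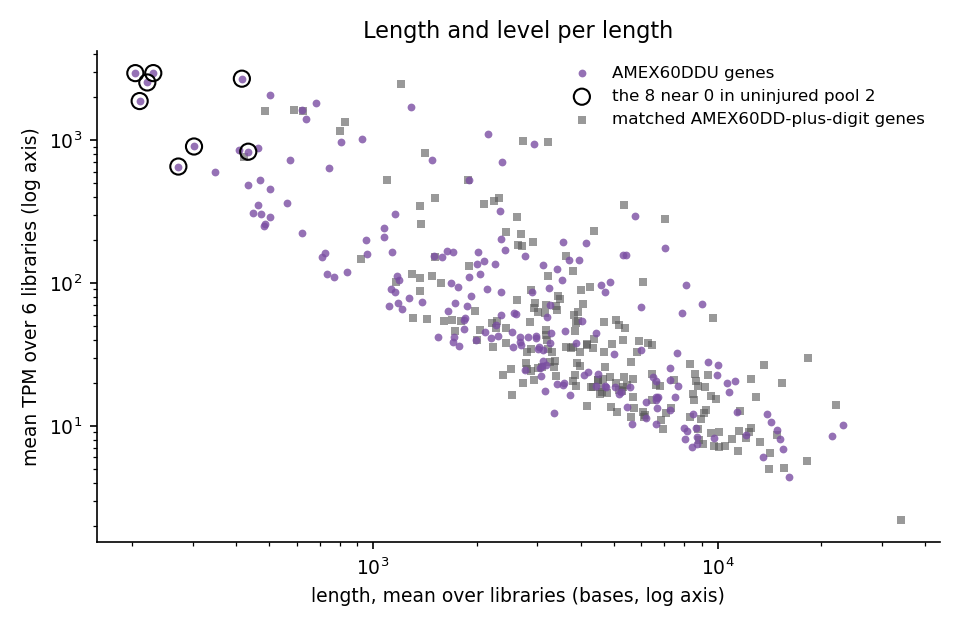
Mean TPM over 6 libraries against gene length (both on log axes), with 1 point per gene, for the AMEX60DDU genes (purple), the matched genes (grey squares) and, circled, the 8 genes near 0 in uninjured pool 2. The purple points reach to shorter lengths, where the circled genes of 204 to 434 bases lie.

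AMEX60DDU genes with a count that was not whole were called about as often as the others but had a larger SE. A count that is not whole does not give the amount of shared reads. Of the 119 AMEX60DDU genes with a count that was not whole, 34 were higher and 44 lower (65.5% called), and of the 81 with whole counts alone 25 were higher and 27 lower (64.2%). The median SE of the log2 change was 0.29 in the 119 and 0.19 in the 81. Among the 119 are all 8 genes near 0 in uninjured pool 2 and 10 of the 13 genes high in uninjured pool 1. In the matched genes the median SE was 0.20 in both kinds. Over all 200 genes the median SE was 0.25, against 0.20 in the matched genes.

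The spread between pools was also larger than in the matched genes. The median SD of log2(CPM + 0.5) over 3 pools was 0.22 in regenerating and 0.27 in uninjured retinas for the AMEX60DDU genes, 0.18 and 0.21 for the matched genes and 0.23 and 0.24 for all tested genes. A range of more than 4-fold among regenerating pools occurred in 7 AMEX60DDU genes and 1 matched gene, and among uninjured pools in 25 and 3. Over all tested genes such a range occurred in 10.6% among regenerating and 11.9% among uninjured pools, beside 3.50% and 12.5% of the AMEX60DDU genes. Without the 8 short genes near 0 in uninjured pool 2 it occurred in 6 AMEX60DDU genes among regenerating and 17 among uninjured pools. The 17 include the 13 genes high in uninjured pool 1. Some of the 7 had few reads, with a lowest estimate of 2.26 in the gene ranked 94 and 4 in that ranked 183. Over genes, the correlation of log2(CPM + 0.5) between pools was 0.96 to 0.99 within the regenerating group for both sets. Within the uninjured group it was 0.58 to 0.80 for the AMEX60DDU and 0.91 to 1.00 for the matched genes. Between uninjured pools 2 and 3 it was 0.63 over the 200 genes and 0.99 over the 192 without the 8 short genes. These correlations are across genes of the same libraries, which are not replicates.

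The match in calls at high abundance did not extend to genes of few reads. In genes of at least 10 CPM, 60.7% of 527 tested AMEX60DDU genes were called, against 60.2% of AMEX60DD-plus-digit genes weighted to the same abundance. Under 10 CPM, 18.3% of 11402 AMEX60DDU genes were called, against 37.5% of the others so weighted. With pools of the same animals blocked the shares were 55.9% and 55.1% from 10 CPM, and 11.5% and 27.1% under it. Over all tested genes 20.2% of the AMEX60DDU and 51.4% of the other genes were called, and 38.5% of the other genes once weighted. Without regenerating pool 1 or 2 the AMEX60DDU share was 13.3% or 12.1%, and without uninjured pool 2 or 3 it was 10.9% or 10.4%. The weighted share of the other genes was 24.6% without uninjured pool 3. Under 10 CPM the AMEX60DDU share was the lower one in all 15 settings tried, which ranged from 5.33% to 30.1% for the AMEX60DDU genes and 13.4% to 46.9% for the others. Weighting by abundance thus made the gap between identifier types smaller without closing it.

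By class of mean CPM the shares met at 10 to 20 CPM, with 55.8% of 226 AMEX60DDU and 55.3% of 3645 other genes called. Between 5 and 10 CPM they were 40.2% of 435 and 51.7% of 3258, and under 1 CPM 14.2% of 7420 and 34.1% of 4666. Below 10 CPM the AMEX60DDU genes also had smaller fitted changes, with class medians of 0.54 to 0.61 in size on the log2 scale against 0.94 to 1.19. In every class from 10 CPM their median was the larger one. It was 1.01 against 0.81 at 10 to 20 CPM and 0.84 against 0.80 at 20 to 50 CPM. The SE of the AMEX60DDU genes was not larger under 10 CPM, for example 0.46 against 0.56 under 1 CPM, whereas in every class from 10 CPM it was. In the classes under 10 CPM 83.7% to 92.8% of AMEX60DDU genes had a count that was not whole, against 49.2% to 56.2% of the others. The part of shared reads in the smaller changes was not tested.

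**Figure D5:**
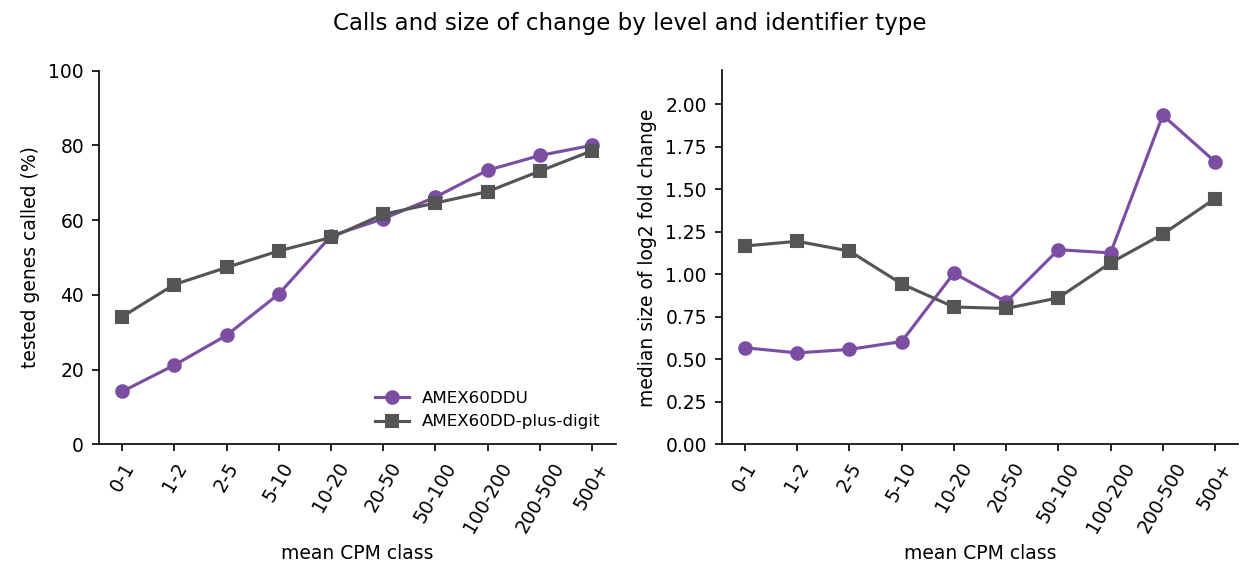
Share of tested genes called (left, in percent) and median size of the log2 fold change (right) by class of mean CPM, for AMEX60DDU genes (purple circles) and AMEX60DD-plus-digit genes (grey squares). The curves of calls lie apart under 10 CPM, at 14.2% and 34.1% in the lowest class, and run together from 10 to 20 CPM upwards. On the right, the AMEX60DDU curve lies below the other under 10 CPM and above it from 10 to 20 CPM upwards. The highest classes hold few AMEX60DDU genes (22 from 200 to 500 CPM and 5 from 500 CPM).

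Among the 200 genes 8 pairs carried consecutive identifier numbers. In 7 of them both members had the same call, higher in 1, lower in 4 and not called in 2, and in 6 of the 8 the fitted changes had the same sign. The genes ranked 38 and 183 both fell, with log2 changes of -7.29 and -7.34, and those ranked 37 and 57 both rose, with 0.58 and 0.96. The members ranked 188 and 195, not called, had log2 changes of 0.12 and -0.01. The pair whose calls differed was ranked 79 and 114, with log2 changes of 1.85 and -3.44. Of the 7 pairs, 3 lie within the 8 short genes. No count of such pairs was made over all genes.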

How the data were processed

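The submitters' processing notes name Trimmomatic 0.38 and Salmon 0.13.1. The sources used here give no genome build, annotation or strand setting. Per the file headers, the deposited files give an estimated count, a TPM value and a length per gene and library. The table of the whole series was not used. The 200 genes, the lists and the classes were chosen with earlier results of these data known. Estimated counts were rounded and tested with edgeR 4.0.16 in R 4.3.3 (filterByExpr minimum count 10, TMM, robust quasi-likelihood F-test, all 6 libraries, Benjamini-Hochberg adjustment over 37844 genes). TMM factors were 0.943 to 0.947 in regenerating and 0.991 to 1.12 in uninjured libraries, so scaled and unscaled CPM differ slightly. SE was taken as log2 change over root F.

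In order of falling mean CPM, each AMEX60DDU gene took the nearest unused AMEX60DD-plus-digit gene on log2 mean CPM. For weighted shares, AMEX60DD-plus-digit genes were averaged in 40 classes, each weighted by its number of AMEX60DDU genes. A count was called whole within 0.001. Correlation of log2 CPM uses a pseudocount of 0.5. Identifiers to print were the 2 genes with the most reads that rose, fell or were not called. Calls had to go in the same direction in all 3 pairs. Others are given by rank, namely ranks 1 to 10, the 5 largest changes each way and genes picked to show a pattern after their values were seen. The genes uneven among pools were singled out after their values were seen.

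Each library is a pool of animals, so p-values measure the spread between pools. Per the labels, equal pool numbers mark shared animals. Over tested genes their deviations from the group means correlated at -0.05 to 0.05. The variance between libraries of a group was 11.3 or more times that of read sampling. At this depth, 3 reads correspond to 0.0753 to 0.109 CPM after scaling. Simulated counts were used to check the test. Alternatives were RLE scaling, library totals, other filters, DESeq2 1.42.0, limma-voom and limma 3.58.1 on log2(TPM + 0.5), where mean TPM reached 0.5, a replicate block, other sizes and measures for choosing genes, and leaving out each library.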

Additional observations from a re-analysis of the deposited data

How the results depend on the processing

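The sets without genes high in 1 group and without the 8 short genes were chosen after seeing the data. Other scalings, filters and tools gave 52 to 65 genes higher (59) and 61 to 78 lower (71), and no call of the 200 genes turned direction. With the replicate block, that is with pools paired by animal, they were 61 and 64. Without 1 library the numbers were 47 to 78 and 55 to 81. Since the numbers follow the size of the set, 100 genes gave 33 and 43 and 400 genes gave 120 and 131. The 110 genes above the cutoff in both groups gave 34 and 22, and here the balance changed too. Of their calls 60.7% were higher, against 45.4% over the 200 genes. The balance changed likewise in the matched genes, with 38 higher and 26 lower among the 114 of this kind, against 67 and 71 over all 200. The median log2 change of the AMEX60DDU genes (-0.01) was -0.30 on log2(TPM + 0.5), a setting that moved all genes by -0.26. Library totals moved all genes by -0.16. The median was 0.27 over the 200 genes with the highest TPM and 0.30 over those 110 genes. The difference in the share of reads, -0.22 percentage points, was -2.94 in TPM, and that of all AMEX60DDU genes, -0.51, was -5.39. In TPM the difference of the 200 genes lay in the 8 short genes, with 2.46%, 0.00741% and 6.72% of all TPM in uninjured pools 1 to 3. These 8 count among all AMEX60DDU genes too, so part of the difference of -5.39 lay in them. The TPM share of the other 192 genes overlapped between the groups. Of tested AMEX60DDU genes, 20.2% were called, against 6% without a filter, 33.7% with a mean of at least 1 CPM, 13.2% with the replicate block and 10.4% to 23.8% without 1 library. Of the other genes, 51.4% became 27.2% without a filter. The weighted 38.5% became 14.1% without a filter, 22.4% on TPM and 24.6% to 44.8% without 1 library. The cause was not tested. Under 10 CPM the AMEX60DDU share lay below the weighted share in all 15 settings, and from 10 CPM the difference was -1.52 to 2.61 percentage points. Spread and whole counts did not move by 1.5 times. Depth limits low levels to the stated floor.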

Other observations

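The deposited length of a gene, which varies between libraries for some genes, differed by at least 1.25 times between the group means in 3 of the 200 genes. The gene ranked 35 averaged 4168 bases in regenerating and 2658 bases in uninjured pools, and its ranges did not overlap. It had 3396, 4159 and 4948 bases in the regenerating pools and 2724, 2605 and 2643 bases in the uninjured pools, while its level fell (log2 change -2.11). The gene ranked 127 averaged 12279 bases in regenerating and 18599 bases in each uninjured pool. The gene ranked 155 averaged 3000 and 2393 bases with ranges that overlapped. No test was made.

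Of the 7 genes with more than a 4-fold range among regenerating pools, 5 fell, 1 rose and 1 was not called. Over all tested genes 21.1% were called lower and 20.4% higher. Of those that fell, the genes ranked 67, 94, 113 and 183 averaged only 0.300 to 1.10 CPM in regenerating pools. In genes chosen for a high mean CPM such low levels go with a fall, so the count is a description. The gene ranked 76 had 21.0, 4.70 and 2.45 CPM in regenerating and 111, 161 and 145 CPM in uninjured pools. The gene ranked 198, not called, had 62.0, 53.9 and 10.2 CPM in regenerating and 24.0, 30.5 and 9.94 CPM in uninjured pools, so that pool 3 was the lowest of both groups. Outside the 8 short genes near 0 in uninjured pool 2, 10 of the 200 genes were shorter than 500 bases, of which 1 was higher and 2 lower. Over the 200 genes 65.0% were called, and over all tested genes 41.6%.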
